A study of Mus musculus with 10 samples.

Results

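The RNA levels of 10 genes of the smooth muscle contractile apparatus were followed across 10 mouse ovaries. The genes were chosen by symbol as Acta2, Myh11, Tagln, Cnn1, Des, Actg2, Mylk, Lmod1, Smtn and Synpo2, and they are 10 of the 55487 genes in the deposited count table. All 10 passed edgeR's filter on low counts, which kept 18956 genes for testing. Smooth muscle shortens when calcium-bound calmodulin activates myosin light chain kinase, the phosphorylated myosin pulls on actin filaments, and those filaments are anchored to dense bodies and to a desmin network. In the ovary, smooth muscle cells lie in the walls of arteries and in the outer theca around follicles, and the neighbouring oviduct has a muscular wall below its ciliated and secretory epithelium. Transcription of many of these genes is driven by serum response factor and its coactivator myocardin through a DNA element called the CArG box.

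The ovaries came from mice with a C57BL/6J background in 3 groups. The Control group held 4 mice aged 8 weeks, the Aged group 3 mice that the labels give as 11 months old, and the Aged+CF group 3 mice with the same labelled age. The treated mice were given CEFFE, a cell-free protein extract of fat, in doses of 200 μL at 3 μg/μL. By the study's methods it was injected through the tail vein every 2 days for 2 weeks, with saline for the Control and Aged mice, and the older mice are placed 1 month younger than in the labels. All mice had been injected with 10 IU of PMSG, a gonadotropin that stimulates follicles, and their ovaries were taken 48 h later. Each ovary had its own library of total RNA, and between 15761789 and 21318254 reads were counted on genes. Levels are given as CPM, a gene's count relative to its TMM-scaled library size, in the usual unit of edgeR, and fold changes as log2 values from edgeR with a standard error (SE). Whole ovaries were sequenced, so a smaller number of smooth muscle cells and less RNA per cell cannot be told apart.

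A pair of libraries stood apart from the rest in markers of the oviduct epithelium. Ovgp1, the secretory oviduct glycoprotein, was at 298 CPM in Control 33 and 245 CPM in Aged 34, and Foxj1, a regulator of motile cilia, was at 36.7 and 32.3 CPM there. Aged+CF 30 had 31.2 CPM of Ovgp1 and 0.229 CPM of Foxj1, and the other 7 ovaries had at most 6.36 CPM of Ovgp1 and 1.91 CPM of Foxj1. Sums over the 11 listed oviduct genes ranged from 9.45 to 394 CPM in Control, from 10.8 to 328 CPM in Aged and from 10.3 to 38.5 CPM in Aged+CF. Ovarian markers were present throughout, with granulosa genes summing to between 3280 and 8878 CPM. The biological coefficient of variation was 0.378 in Aged, against 0.209 in Control and 0.193 in Aged+CF. Results are therefore given with and without these ovaries where they differ.

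The promoter of Acta2 is shown because this gene had the highest level of the set and because the CArG box is the element its regulators are known to bind. A RefSeq promoter of 250 bases before and 50 bases after the start was found for 7 of the 10 genes (Acta2, Cnn1, Des, Lmod1, Mylk, Smtn and Synpo2). The window for Acta2 is on GRCm38.p6 at chr19:34255324-34255623, minus strand, and the capitals mark CArG-like elements.
Acta2: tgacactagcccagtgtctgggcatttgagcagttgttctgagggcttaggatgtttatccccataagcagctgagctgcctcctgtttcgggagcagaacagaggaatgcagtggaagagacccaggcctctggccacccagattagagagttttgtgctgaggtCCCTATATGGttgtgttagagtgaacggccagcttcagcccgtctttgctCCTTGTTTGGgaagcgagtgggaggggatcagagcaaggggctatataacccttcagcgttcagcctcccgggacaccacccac
These elements begin 84 and 34 bases before the start. They have CC and GG around 6 bases of which 1 is neither A nor T, a looser form of the CArG box that was searched after the sequences had been seen and that reads the same on both strands. With all 6 inner bases A or T, the box was in 0 of the 7 promoters and in 1.63% of 32851 RefSeq promoters. The looser form was in 1 of the 7, that of Acta2, and in 9.98% of all promoters. These matches are letters in a window and were not tested as binding sites.

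Per unit length, Acta2 was the most abundant of the set. The deposited FPKM, which divides the count by the gene's length and the library total, averaged 273 for Acta2, 127 for Tagln, 54.1 for Myh11, 35.7 for Actg2 and 29.5 for Mylk over the 10 ovaries. Smtn followed at 25.2 FPKM, Des at 22.6, Cnn1 at 13.9, Lmod1 at 11.5 and Synpo2 at 1.48. Synpo2 is divided by a length of 19244 bases, the longest of the set. The ranges of neighbours in this order overlapped between ovaries, as in Actg2 (14.2 to 63.6 FPKM) and Mylk (17.3 to 38.2 FPKM). The exception was Synpo2 (0.881 to 3.14 FPKM), which stayed below Lmod1 (8.84 to 16.97 FPKM). Within every ovary, however, Acta2 was above Tagln, Tagln above Myh11 and Myh11 above Actg2. The order of Actg2 and Mylk changed between ovaries. Together the 10 genes took between 0.146% of the counted reads in Aged+CF 32 and 0.344% in Aged 34.

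**Figure D1:**
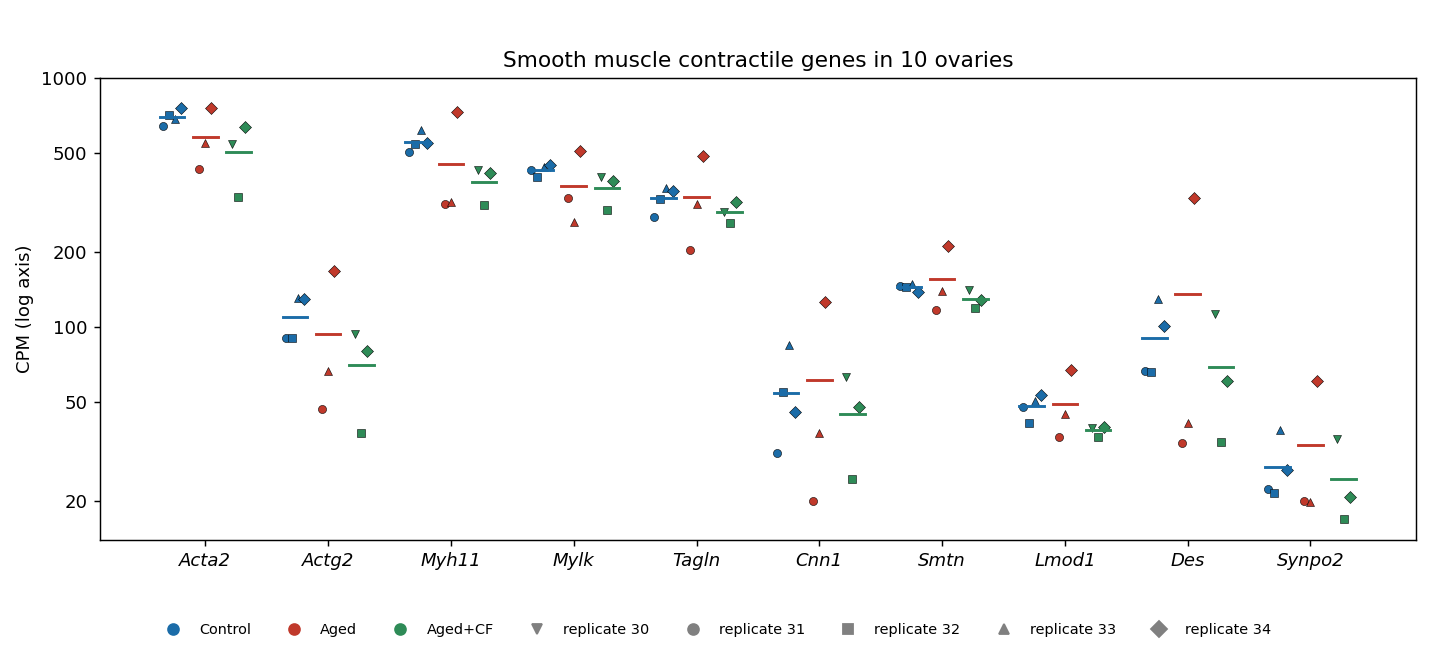
CPM of the 10 genes on a log axis in each of 10 ovaries, with 1 point per ovary, its shape giving the replicate number, its colour the group, and a bar at the group mean. Aged 34, the red diamond, was the highest point for all 10 genes, and Aged+CF 32, the green square, was among the lowest 2 for all 10.

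The actins form the thin filament. Acta2 encodes vascular smooth muscle alpha-actin (ENSMUSG00000035783, chromosome 19, 34241090 to 34255590, GRCm38). Its CPM were 642, 710, 686 and 756 in Control 31, 32, 33 and 34, then 429, 546 and 759 in Aged 31, 33 and 34, and 543, 332 and 635 in Aged+CF 30, 32 and 34. The Control ovaries lay close together (699 ± 47.6 CPM, SD, n = 4), the Aged ovaries were spread on both sides of them (578 ± 168, n = 3), and all 3 Aged+CF ovaries were below every Control ovary (503 ± 155, n = 3). Actg2, the gamma-actin of visceral smooth muscle (ENSMUSG00000059430, chromosome 6, 83512905 to 83536265), was at 90.0, 90.5, 131 and 129 CPM in Control, at 46.7, 66.6 and 168 CPM in Aged and at 93.4, 37.4 and 79.9 CPM in Aged+CF, in the same order of ovaries. Only Aged 34 exceeded the Control ovaries, while the other Aged ovaries lay below them. The coding sequences of these actins were 83.8% identical and shared 0 of 1085 windows of 50 bases, so most reads can be told apart, although 7 windows of Acta2 also occur in the cytoplasmic actin Actg1.

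The motor and its switch are Myh11 and Mylk. Myh11, the smooth muscle myosin heavy chain (ENSMUSG00000018830, chromosome 16, 14194535 to 14291372), had 504, 542, 621 and 547 CPM in the 4 Control ovaries. It had 311 and 317 CPM in Aged 31 and 33 but 728 CPM in Aged 34, and 426, 310 and 415 CPM in Aged+CF 30, 32 and 34. Apart from Aged 34, every older ovary lay below the lowest Control ovary. Mylk, myosin light chain kinase (ENSMUSG00000022836, chromosome 16, 34745210 to 35002420), had its highest ovary at 1.92 times its lowest, from 265 CPM in Aged 33 to 509 CPM in Aged 34. Its Control ovaries were between 401 and 445 CPM and its Aged+CF ovaries between 295 and 401 CPM. Mylk overlaps 3 annotated antisense genes, and the strand setting of the counting is not given in the sources used here.

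Tagln, Cnn1, Smtn and Lmod1 act on actin. Tagln, which encodes the actin-binding protein transgelin (ENSMUSG00000032085, chromosome 9, 45929619 to 45936058), averaged 329 ± 38.0 CPM in Control, and the Aged ovaries averaged 334 ± 141 and the Aged+CF ovaries 289 ± 27.3 CPM (SD, n as above). Its gene overlaps Pcsk7 on the other strand. Cnn1, which encodes calponin, an inhibitor of myosin's ATPase on thin filaments (ENSMUSG00000001349, chromosome 9, 22099216 to 22109630), was at 31.3, 55.0, 84.3 and 45.7 CPM in Control, at 20.04, 37.5 and 125 CPM in Aged and at 62.7, 24.4 and 47.5 CPM in Aged+CF. In each group its highest value was in the ovary with the most Ovgp1, as also held for Myh11, Des, Actg2, Smtn and Synpo2. Smtn, which encodes smoothelin of contractile smooth muscle (ENSMUSG00000020439, chromosome 11, 3517523 to 3540612), had the smallest spread in Control, with a coefficient of variation of 2.98% around 145 CPM, and was at 117, 140 and 211 CPM in Aged and at 141, 120 and 128 CPM in Aged+CF. Lmod1, which encodes leiomodin, a nucleator of actin filaments (ENSMUSG00000048096, chromosome 1, 135324807 to 135368065), was at 47.8, 41.1, 50.2 and 53.5 CPM in Control, at 36.0, 44.5 and 67.0 CPM in Aged and at 39.4, 36.1 and 39.7 CPM in Aged+CF. All 3 Aged+CF values of Lmod1 lay below the Control values, and their coefficient of variation was 5.19%.

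Des and Synpo2 belong to the anchoring lattice. Des encodes the intermediate filament protein desmin, found in all muscle types (ENSMUSG00000026208, chromosome 1, 75360329 to 75368579). It was at 66.4, 65.8, 129 and 101 CPM in Control, at 34.3, 41.2 and 331 CPM in Aged and at 113, 34.3 and 60.7 CPM in Aged+CF. Its coefficient of variation among the Aged ovaries, 125%, was the highest of the set, and its highest ovary was 9.65 times its lowest. Synpo2, which encodes an actin-bundling protein of Z-discs and dense bodies (ENSMUSG00000050315, chromosome 3, 123076519 to 123236149), was at 22.4, 21.4, 38.7 and 26.7 CPM in Control, at 20.04, 19.9 and 60.5 CPM in Aged and at 35.5, 17.001 and 20.8 CPM in Aged+CF. Markers of other muscle types were read beside these genes. The 12 skeletal muscle genes summed to 8.53 to 29.8 CPM in Control and 8.39 to 18.6 in Aged+CF, and to 71.6, 37.8 and 11.6 CPM in Aged 31, 33 and 34. Most of the sum in Aged 31 was Ryr1, a calcium release channel, at 66.3 CPM, while the myosin gene Myh4 had no read in any ovary. The order of the Aged sums followed Ryr1, and other genes of the list differed. Actn3 was at 1.79, 1.62 and 4.91 CPM and Mylpf at 1.61, 1.83 and 0.937 CPM in Aged 31, 33 and 34. The summed cardiac list was at 109 to 155 CPM in Control, 69.4 to 77.8 in Aged and 66.0 to 101 in Aged+CF. Its lowest Aged sum was in Aged 34, but its genes differed in direction. In Aged 31, 33 and 34, Tnni3 was at 38.9, 60.0 and 21.7 CPM. Ryr2 was at 25.9, 11.7 and 38.8 CPM and Tnnt2 at 1.97, 2.54 and 4.52 CPM in the same order.

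Aged vs Control addressed how the ovary differs with age. None of the 10 genes passed the threshold of a fold change of at least 1.5 with an adjusted p under 0.05, where 11.1% of all tested genes did. With the unadjusted p the count was again 0 of 10, against 18.2% of all genes (8.79% higher and 9.44% lower in Aged), and 0 of 10 had an unadjusted p under 0.05 at any fold. DESeq2's Wald test also called 0, against 14.6% of all genes. Of the 10 genes 4 were lower in Aged (Acta2, Actg2, Myh11 and Mylk) and 6 higher, and their median log2 fold change was 0.026, beside -0.00053 over all genes tested. The estimates were imprecise. That of Des was 0.58 with a 95% interval from -1.04 to 2.20 (SE 0.73; edgeR adjusted p = 0.633), and that of Cnn1 was 0.17 with an interval from -1.11 to 1.46. Smtn, the most evenly expressed, was at 0.11 with an interval from -0.27 to 0.49 (SE 0.17; edgeR adjusted p = 0.703).

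These values depended on single ovaries, most of all on Aged 34. The median was also below 0 without Control 31 (-0.035) and without Control 32 (-0.012), and it was 0.27 without Aged 31. Aged 34 had the highest CPM of all 10 ovaries for 10 of 10 genes. On the FPKM scale it was highest for 9, the exception being Acta2, for which Control 34 was highest. Aged 31 was among the lowest 2 ovaries for 8 of 10 genes and Aged 33 for 2. The shares of all tested genes with these ranks in these ovaries were not counted. Without Aged 34, all 10 genes were lower in Aged, the median log2 fold change was -0.49 (all genes -0.0065), and Myh11 was called, at -0.78 (SE 0.15; edgeR adjusted p = 0.0073). Over 17 alternatives the adjusted p of Myh11 ranged from 0.0073 to 0.917, and it was called in the 3 of them that left out Aged 34. The call is 1 of 10 genes where 16.1% of all genes were called without that ovary, and at unadjusted p 3 of 10 passed (Myh11, Actg2 and Des), against 22.1% of all genes. Mylk fell by 0.49 on the log2 scale without it (SE 0.14; edgeR adjusted p = 0.038), a fold below the threshold, with adjusted p over the alternatives from 0.038 to 0.982. Des (-1.23), Actg2 (-0.92) and Cnn1 (-0.88) had the largest estimates without Aged 34, and none of them passed (edgeR adjusted p = 0.0796, 0.0831 and 0.200). With both Control 33 and Aged 34 left out, a setting chosen after the data were seen, Myh11 was at -0.72 (edgeR adjusted p = 0.0163), again 1 of 10 genes where 14.4% of all genes were called, and the median of the 10 genes was -0.48.

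**Figure D2:**
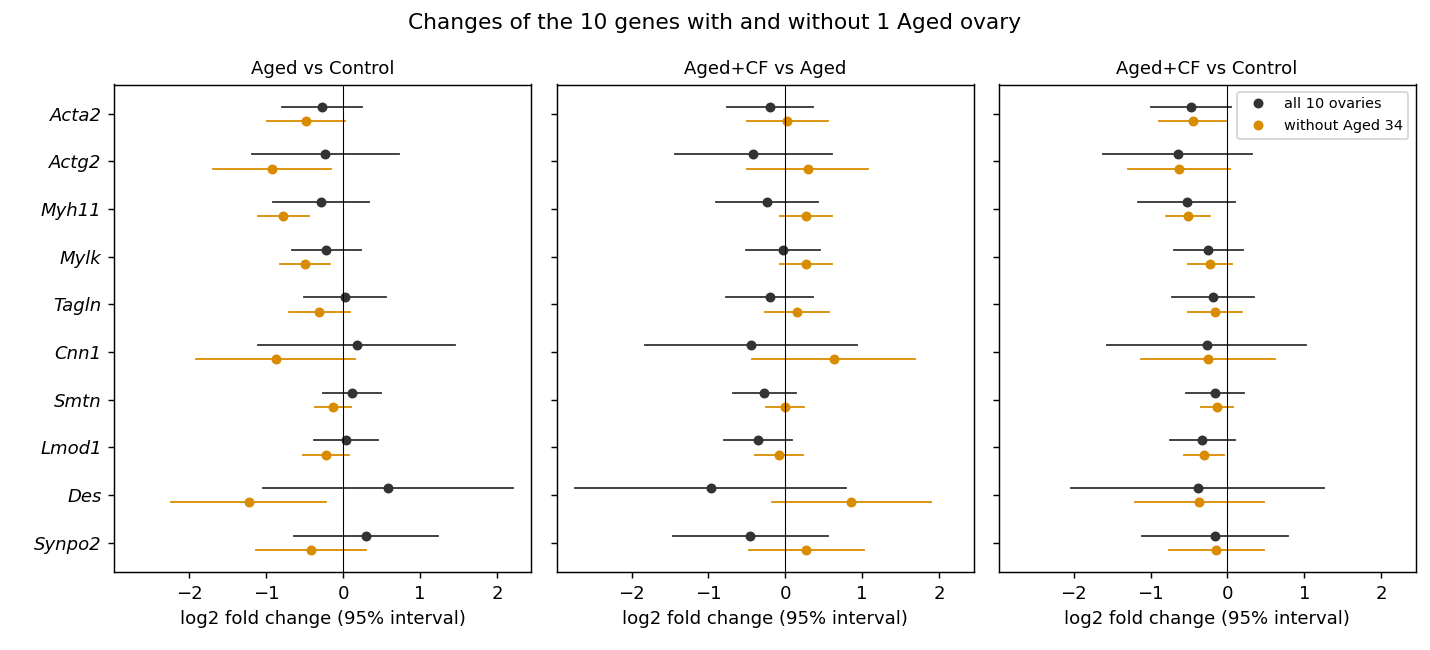
Log2 fold changes of the 10 genes in the 3 comparisons, with points for the edgeR estimate and lines for its 95% interval, from all 10 ovaries (dark) and without Aged 34 (orange). Without Aged 34, all 10 estimates of Aged vs Control lay below 0, and 8 of 10 estimates of Aged+CF vs Aged lay above 0.

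Aged+CF vs Aged addressed what the fat extract changed in old ovaries. None of the 10 genes was called at adjusted p, where 0.00528% of all genes were, or at unadjusted p, where 7.96% were. At any fold 0 of 10 had an unadjusted p under 0.05, and DESeq2 called 0 (2.32% of all genes). All 10 estimates were below 0, with a median log2 fold change of -0.31, beside -0.021 over all genes. Lmod1 came nearest to the threshold at -0.36 (SE 0.20; edgeR adjusted p = 0.396), and Des was at -0.97 with an interval from -2.73 to 0.79. The Aged+CF ranges overlapped the Aged ranges for every gene, while 10.2% of all genes lay without overlap higher and 8.39% lower. Without Aged 34 the direction turned for 8 of the 10 genes, with a median of 0.27 (all genes 0.0083), 0 called and 2.87% of all genes called. Lmod1 (-0.083) and Smtn (-0.0052) remained below 0. Without Control 33, Aged 34 and Aged+CF 30 the median was 0.094, with 0 called and 0.0739% of all genes called. The direction of this comparison rested on Aged 34.

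Aged+CF vs Control does not contain Aged 34, but that ovary enters the estimate of the spread. None of the 10 genes was called at adjusted p (0.179% of all genes) or at unadjusted p (7.69% of all genes), 0 of 10 had an unadjusted p under 0.05 at any fold, and DESeq2 called 0 (2.79% of all genes). Without Aged 34, 3 of 10 had an unadjusted p under 0.05 at any fold (Myh11, Lmod1 and Acta2), against 19.7% of all genes. All 10 were lower in Aged+CF with a median log2 fold change of -0.30, beside -0.028 over all genes, and without Aged 34 the median was -0.28, with 0 called and 1.8% of all genes called. Without Control 33 and Aged 34 the median was -0.18, with 0 called and 0.832% of all genes called. Without Aged+CF 30 as well, 2 of 10 passed at unadjusted p, where 9.94% of all genes did. For Acta2, Myh11 and Lmod1 the Aged+CF ovaries did not overlap the Control ovaries, which is 3 of 10 genes where 12.2% of all genes showed this in that direction. None lay without overlap above the Control ovaries, where 9.69% of all genes did. Acta2 was at -0.47 (SE 0.24, 95% interval from -1.0 to 0.052; edgeR adjusted p = 0.389) and Myh11 at -0.53 (SE 0.28, interval from -1.16 to 0.096; edgeR adjusted p = 0.414). Without Aged 34, Myh11 was at -0.51 with an adjusted p of 0.0664 by edgeR, and its adjusted p over all alternatives ranged from 0.0654 to 0.804. Aged+CF 32 was among the lowest 2 ovaries for 10 of 10 genes, and the median without it was -0.12. The share of all tested genes with such a rank in Aged+CF 32 was not counted. The comparisons share samples, so their values are not independent of each other.

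The contractile genes differed in how far the ovaries with oviduct markers stood above their group mates. In Aged 34, Des was 8.77 times the mean of the other Aged ovaries, Cnn1 4.36 times, Synpo2 3.03 times and Actg2 2.96 times. Acta2 was 1.56 times that mean, the smallest ratio, and the median over the 10 genes was 2.1. In Control 33 the highest ratios belonged to the same 4 genes, with 1.92 for Cnn1, 1.66 for Des, 1.64 for Synpo2 and 1.27 for Actg2, while Acta2 was at 0.977 and the median was 1.15. Aged+CF 30 had ratios of 2.37 for Des, 1.88 for Synpo2, 1.74 for Cnn1 and 1.59 for Actg2, with 1.12 for Acta2 and a median of 1.18. All 10 genes exceeded every group mate in Aged 34, and 7 of 10 did so in Control 33 and in Aged+CF 30. The share of all genes that did so was not counted. Over most tested genes, the chi-square per degree of freedom between counts was 75.2 and 119 for Aged 34 against Aged 31 and 33. Between Aged 31 and 33 it was 45.9. Control 33 had more Ovgp1 than Aged 34 but less Des, at 129 against 331 CPM. In Aged 34 the summed stromal fibroblast genes (5986 CPM) and macrophage genes (1536 CPM) were also the highest of the 10 ovaries, and the oocyte genes (69.2 CPM) the lowest. Single genes of these lists differed. Col1a1 was highest in Aged 34, at 1071 CPM. Col3a1 was at 1040 CPM there and 1051 in Aged 31, and Col1a2 at 1435 CPM there and 1467 in Control 33. Lyz2 alone was at 958 CPM in Aged 34. Of the oocyte list, Kit was at 54.2 CPM in Aged 34 and 49.9 in Aged 31. The part of these tissues in the contractile genes was not tested.

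**Figure D3:**
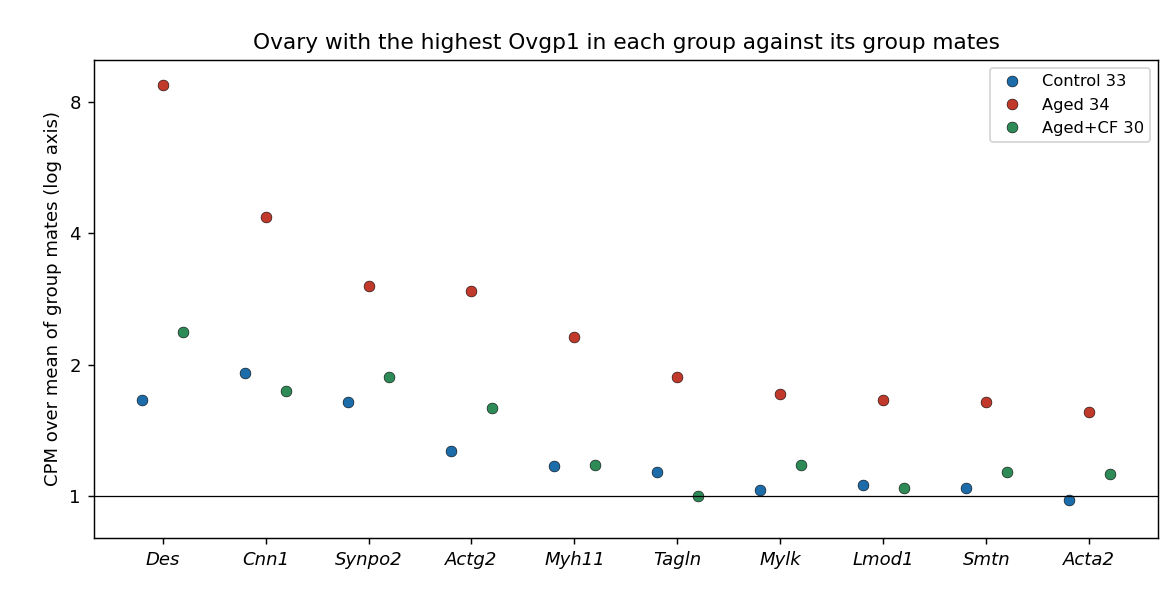
Ratio of the CPM in the ovary with the most Ovgp1 in each group to the mean CPM of its group mates, on a log axis, for the 10 genes in the order of Aged 34. Des, Cnn1, Synpo2 and Actg2 had the 4 highest ratios in all 3 groups, and those of Aged 34 reached from 1.56 to 8.77.

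Markers of other cells of the vessel wall and the ovary were read beside these results. The 12 pericyte genes, which mark the mural cells of small vessels, summed to 545 to 747 CPM in Control, 719 to 883 in Aged and 702 to 775 in Aged+CF. In Aged vs Control 0 of 12 were called, where 11.1% of all genes were. Of their estimates 11 were above 0, while 50.1% of all genes were below 0. Without Aged 34, 10 were above 0 and 1 of 12 was called, Rgs5, higher in Aged, where 16.1% of all genes were called. Rgs5 was at 190, 190 and 98.6 CPM in Aged 31, 33 and 34, and Anpep at 121, 50.8 and 249 CPM. With all 10 ovaries, 7 of the 12 endothelial genes were called higher in Aged, where 5% of all genes were. Without Aged 34, 9 of the 12 endothelial genes were called higher. Their sum was 608 to 709 CPM in Control, 909 to 1112 in Aged and 734 to 788 in Aged+CF. All 8 luteal genes were called higher in Aged, with sums of 3672 to 9260 CPM in Control and 13698 to 34871 in Aged. Aged 34 had the lowest luteal sum of the Aged ovaries, at 13698 CPM, and Aged 31 and 33 were at 24340 and 34871 CPM. Stromal fibroblast sums were 4239 to 4998 CPM in Control and 2145 to 5986 in Aged. The part of these cell types in the contractile genes was not tested.

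The wider contractile pathway was read from 3 lists with 103 genes, of which 96 were tested. In Aged vs Control 5 of the 96 were called higher and 4 lower, beside 5% and 6.06% of all genes. The list of other filament and adhesion partners had 2 higher and 2 lower of 40. Calcium, potassium, nitric oxide and receptor genes had 3 higher and 0 lower of 33. The median log2 fold changes of these lists were 0.018 and 0.15. Without Aged 34 both medians were below 0, at -0.069 and -0.072, and without Control 33 and Aged 34 they were -0.037 and -0.078. Without Aged 34 the calls were 11 higher and 12 lower of the 96, where the share of all genes called had risen to 16.1% as well. With the replicate number as a block they were 1 and 0, where 0.422% of all genes were called.

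Myocd, which encodes the coactivator myocardin, had the smallest p of the 96 genes. It was at 17.6, 22.8, 21.5 and 18.5 CPM in Control, at 7.81, 7.69 and 8.49 CPM in Aged and at 13.99, 10.97 and 16.5 CPM in Aged+CF. The 3 groups did not overlap, and Aged 34 was not set apart from the other Aged ovaries as it was for the contractile genes. Of all genes 15.6% lay without overlap lower in Aged vs Control and 10.2% higher in Aged+CF vs Aged. In Aged+CF vs Control 12.2% lay without overlap lower. Myocd fell by 1.33 on the log2 scale in Aged vs Control (SE 0.17; edgeR adjusted p = 0.00399) and was called in 16 of 17 alternatives, with adjusted p from 1.31e-10 to 0.0593. Between Aged+CF and Aged its log2 fold change was 0.79 (SE 0.17; edgeR adjusted p = 0.159), which did not pass, with adjusted p from 0.00551 to 0.732 over the alternatives. Tead1, a transcription factor of the Hippo pathway, was at 15.5 to 23.7 CPM in Control, 10.6 to 11.6 in Aged and 19.2 to 23.4 in Aged+CF. It fell by 0.81 in Aged (SE 0.16; edgeR adjusted p = 0.012) and was called in 15 of 17 alternatives, the exceptions being the replicate block and leaving out the 3 ovaries with Ovgp1 (adjusted p up to 0.0703). Tead1 was at 0.92 in Aged+CF vs Aged (SE 0.17; edgeR adjusted p = 0.150), where it passed without Aged 34 (edgeR adjusted p = 0.0442, over all alternatives 0.000498 to 0.728).

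**Figure D4:**
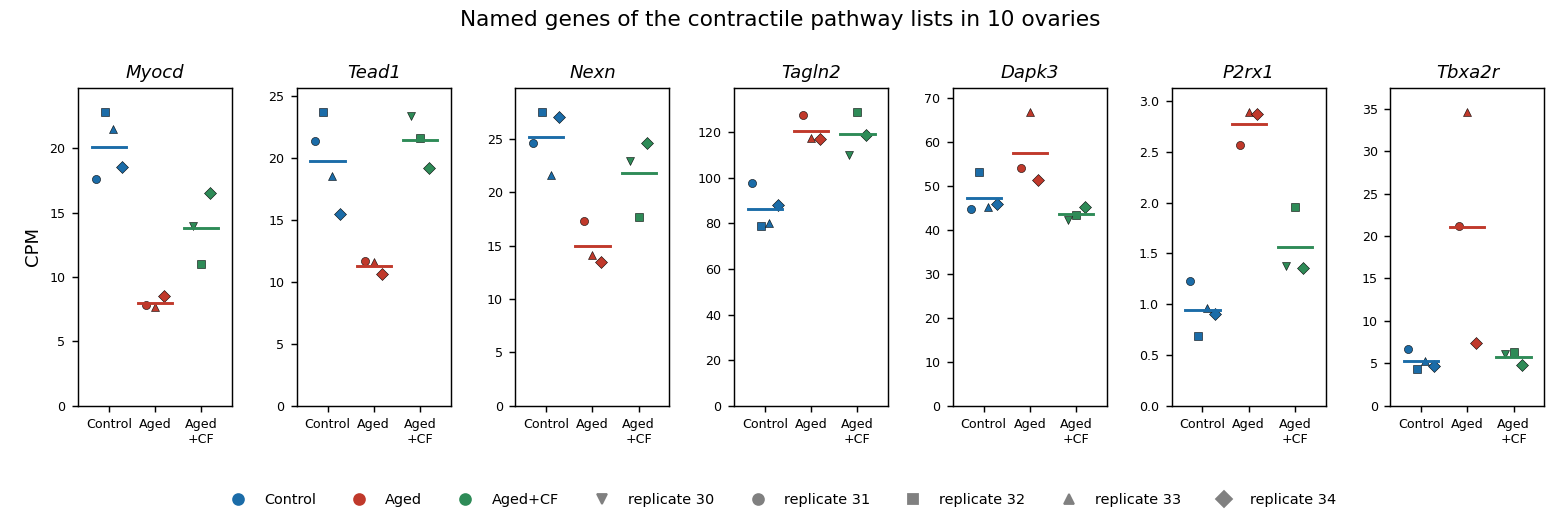
CPM of the 7 pathway genes chosen by smallest p, with 1 point per ovary and a bar at each group mean, each panel with its own axis from 0. Myocd lay between 7.69 and 8.49 CPM in the 3 Aged ovaries and at 10.97 CPM or more in all others.

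The remaining genes with the smallest p were receptors and actin-binding proteins. P2rx1, an ATP-gated cation channel of smooth muscle, was 0.686 to 1.23 CPM in Control and 2.56 to 2.89 CPM in Aged, and it rose by 1.55 on the log2 scale (SE 0.26; edgeR adjusted p = 0.00764). Tbxa2r, the receptor for the vasoconstrictor thromboxane, was 4.30 to 6.71 CPM in Control, 21.2, 34.6 and 7.39 CPM in Aged 31, 33 and 34 and 4.83 to 6.32 CPM in Aged+CF. It rose by 2.01 in Aged (SE 0.41; edgeR adjusted p = 0.0138) and was at -1.87 in Aged+CF vs Aged (SE 0.45; edgeR adjusted p = 0.161), where it passed without Aged 34 (edgeR adjusted p = 0.0106, over all alternatives 0.00483 to 0.738). Tagln2, a relative of Tagln that is not confined to muscle, was at 86.2 ± 8.69 CPM in Control and 121 ± 6.08 CPM in Aged, and its log2 fold change of 0.49 was below the fold threshold (SE 0.098; edgeR adjusted p = 0.0134). Nexn, which encodes the filament protein nexilin, fell by 0.75 in Aged (SE 0.16; edgeR adjusted p = 0.0145) and was at 0.54 in Aged+CF vs Aged (edgeR adjusted p = 0.192). In Aged vs Control the calls of P2rx1, Tbxa2r and Nexn were each made in 16 of 17 alternatives and lost with the replicate block (adjusted p 0.0765, 0.0768 and 0.0871). Dapk3, a kinase that acts on myosin and its phosphatase, was at -0.40 in Aged+CF vs Aged (SE 0.12; edgeR adjusted p = 0.184).

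The other called genes of these lists are named because the counts were small, after their values had been seen. Smtnl2, a smoothelin-like gene, fell by 1.0 in Aged (SE 0.21; edgeR adjusted p = 0.0144), a call lost with the replicate block and without the 3 ovaries with Ovgp1 (adjusted p up to 0.0677). Pdlim5 and Tpm3, which encode a PDZ-LIM protein and a tropomyosin, rose by 0.90 and 0.59 (edgeR adjusted p = 0.0188 and 0.042). Pdlim5 was called in 13 of 17 alternatives and Tpm3 in 5, with adjusted p up to 0.0577 and 0.109. Ptgfr, the prostaglandin F receptor, rose by 1.85 (SE 0.48; edgeR adjusted p = 0.0297) and is also on the luteal list. It was called in 11 of 17 alternatives, with adjusted p up to 0.0931. Between Aged+CF and Aged 0 of the 96 genes were called at adjusted p, with 2 higher and 5 lower at unadjusted p (3.91% and 4.05% of all genes), and DESeq2 called 2 higher and 1 lower, where it called 2.32% of all genes. Between Aged+CF and Control 0 were called, with 4 higher and 2 lower at unadjusted p (3.33% and 4.36% of all genes), and DESeq2 called 1 higher, where it called 2.79% of all genes.

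Across the 10 ovaries the contractile genes varied together. The 45 pairs had a median Pearson r of log2 CPM of 0.84, ranging from 0.57 to 0.96. Without the 2 ovaries at the extremes of their mean level, Aged 34 and Aged+CF 32, the median was 0.70 over 8 ovaries, with a range from 0.27 to 0.92. No r over pairs of other genes was taken to set beside these values. The mean r to the set was taken for 13120 genes with a mean of at least 5 CPM, the set and listed genes included. Outside the set and the pathway and marker lists, the 10 highest were Ogn (0.87), Adh1 (0.87), Ntrk2 (0.87), Spon1 (0.87), Adcy5 (0.87), Bcan (0.86), Asb2 (0.86), Arsi (0.86), Tmem252 (0.86) and Kcne4 (0.85). Leaving out the same 2 ovaries lowered these means to between 0.71 and 0.77. Spon1, for example, was at 394 CPM in Aged 34 and at 26.5 to 130 CPM in all other ovaries. These values share the same libraries and scaling and are a description.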

How the data were processed

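The values the authors deposited are whole-number counts of reads per gene, not normalized, and FPKM, for every ovary. The submitters' processing notes name TopHat, Cufflinks 2.1.1 and GRCm38.p4, without saying which step each served, and the counting tool and strand setting are not given in the sources used here. In 100% of values the deposited FPKM equals the count divided by a fixed gene length and the column total, within a relative tolerance of 0.001. Of the gene identifiers 55227 were found in GENCODE M21 (GRCm38), which gave the positions, and promoters came from RefSeq (GRCm38.p6).

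Counts were analysed in edgeR 4.0.16 with R 4.3.3. Genes were filtered with filterByExpr, libraries scaled by TMM, and all 10 ovaries fitted with a mean per group. Two-sided quasi-likelihood F tests were adjusted by Benjamini-Hochberg over 18956 genes. Log2 CPM used a prior count of 2. The alternatives were DESeq2 1.42.0 (size factors, Wald test), no filter, only the compared groups, the replicate number as a block, and leaving out each ovary. The script was tested on simulated data.

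The genes, the pathway and marker lists and the tests were chosen with earlier results of these data known. The separate counts of 1 pathway list are not reported here. Named pathway genes had the 5 smallest p over the 3 lists in Aged vs Control or in Aged+CF vs Aged. Named markers had the highest mean CPM of their list or are defining genes. The labels do not say how the mice were housed or bred, and the p-values set differences of group means against the spread between these ovaries. By a chi-square test of counts, every pair of libraries within a group differed beyond sampling noise. In Aged vs Control 5% of all genes were called higher and 6.06% lower. On the remaining marker lists, theca genes had 4 called higher and 2 lower of 10, granulosa genes 1 lower of 10 and oocyte genes 10 lower of 12. Macrophage genes had 3 higher of 8, stromal fibroblast genes 1 lower of 12 and cardiac genes 1 lower of 6. Among surface epithelium, adipocyte, skeletal muscle and oviduct genes 0 were called. Without Aged 34, 16.1% of all genes were called, and stromal fibroblast genes had 3 lower of 12. All 12 of their estimates were then below 0, with a median log2 fold change of -0.50, against 7 with all 10 ovaries. Macrophage genes then had 1 higher, granulosa genes 2 lower and cardiac genes 0. Adipocyte genes had 1 higher of 8 and skeletal muscle genes 1 lower of 5.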

Additional observations from a re-analysis of the deposited data

How the results depend on the processing

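At adjusted p, 0 of the 10 contractile genes were called under any of the 17 alternatives in both comparisons of Aged+CF. In Aged vs Control the count was 0 except that it was 1, Myh11, without Aged 34, without Control 33 and Aged 34, and without those and Aged+CF 30, so leaving out 1 ovary gave 0 to 1. Of all genes 16.1%, 14.4% and 12% were called in these settings, and the last 2 were chosen after the data were seen. At unadjusted p, 3 genes passed in Aged vs Control in each of these 3 settings, against 22.1%, 22.1% and 21.5% of all genes. In Aged+CF vs Control 3 passed with the replicate block, where 1311 of 18956 genes did. Without Aged+CF 34, 1 passed, where 1489 of 19651 genes did, and without the 3 ovaries 2 passed, where 9.94% of all genes did. DESeq2 and its size factors, no filter and only the compared groups turned no direction.

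Leaving out 1 ovary moved the log2 fold changes across 0. In Aged vs Control the median of the 10 genes ranged from -0.49 to 0.27, Tagln from -0.31 to 0.30, Cnn1 from -0.88 to 0.62, Des from -1.23 to 1.06, Actg2 from -0.92 to 0.11, Lmod1 from -0.22 to 0.24, Smtn from -0.13 to 0.31 and Synpo2 from -0.42 to 0.58. For Aged+CF vs Aged the median ranged from -0.51 to 0.27, Acta2 from -0.41 to 0.028, Myh11 from -0.46 to 0.27, Tagln from -0.47 to 0.15, Cnn1 from -0.87 to 0.63, Des from -1.52 to 0.86, Actg2 from -0.75 to 0.29, Mylk from -0.21 to 0.26 and Synpo2 from -0.83 to 0.27. For Aged+CF vs Control the median ranged from -0.51 without Aged+CF 30 to -0.12 without Aged+CF 32, Cnn1 from -0.57 to 0.029 and Synpo2 from -0.51 to 0.054. Of the reversals behind these ranges, 16 came without Aged 34, and those of Cnn1 and Synpo2 in the last comparison without Control 33 or Aged+CF 32. Why these ovaries differ, the cause, was not tested.

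Without Control 33 and Aged 34, the values of Aged vs Control were -0.48 for the median, -0.26 for Tagln, -0.57 for Cnn1, -1.0 for Des, -0.20 for Lmod1, -0.11 for Smtn and -0.20 for Synpo2. Those of Aged+CF vs Aged were 0.27 for the median, 0.029 for Acta2, 0.27 for Myh11, 0.15 for Tagln, 0.63 for Cnn1, 0.86 for Des, 0.29 for Actg2, 0.26 for Mylk and 0.28 for Synpo2. In Aged+CF vs Control Cnn1 was at 0.053 and Synpo2 at 0.078. With Aged+CF 30 left out as well, Aged vs Control gave -0.48 for the median, -0.26 for Tagln, -0.57 for Cnn1, -1.0 for Des, -0.20 for Lmod1, -0.12 for Smtn and -0.20 for Synpo2, and Aged+CF vs Aged gave 0.094 for the median, 0.19 for Myh11, 0.15 for Tagln, 0.31 for Cnn1, 0.32 for Des, 0.036 for Actg2 and 0.18 for Mylk.

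Ovaries with the same replicate number come from different mice, and their deviations from the group means correlated between -0.185 and 0.153, so the numbers were not taken as pairs. With the number as a block, 0 of the 10 genes were called in any comparison, and in Aged vs Control the median was -0.17, Tagln -0.050, Cnn1 -0.17, Des -0.17 and Lmod1 -0.038. The median was -0.72 in Aged+CF vs Control. The block lowered the calls of Aged vs Control over all genes from 2096 to 80.

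With 3 or 4 ovaries a group, the 95% intervals of Des and Cnn1 spanned more than a log2 unit on each side of 0 in Aged vs Control, so a change of the size of the fold threshold was not detectable for them. Over all genes the calls of Aged+CF vs Aged moved from 1 to 556 without Aged 34 and to 440 by DESeq2, and those of Aged vs Control from 2096 to 3112 without Aged 34.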
